A study of Canis lupus familiaris with 34 samples.

Results

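Chemokines and the receptors that steer lymphocytes were followed here across canine tumors. The genes described were CXCL12 and its atypical receptor ACKR3, the homing receptors CCR7, CCR4, CXCR3 and CXCR5, and CXCL13, the ligand of CXCR5. They were found as probe sets that carry exactly 1 gene symbol equal to a listed gene. Of 8 listed genes, 7 were matched, by 10 of the 29254 probe sets with 1 symbol, which read 15115 genes in all. CXCL12, CXCR3 and CXCL13 had 2 probe sets each. The probe set with the higher mean over all arrays stands for the gene and is called its main probe set.

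Affymetrix Canine_2 arrays were hybridized with RNA from 34 samples, 1 array per line, culture or patient. Cultured cells were 10 splenic hemangiosarcoma lines (HSA; 6 from golden retrievers, the others from a Rottweiler, a Portuguese Water Dog, a Dalmatian and a cross of golden retriever and Great Pyrenees), 3 splenic hematoma cultures (a golden retriever, a Standard Poodle and a Keeshond) and 5 golden retriever osteosarcoma lines. Primary cells were 3 leukemias (1 acute lymphoblastic, from the golden retriever mix Rascal, and 2 chronic lymphocytic, Maddle and Forrest), 6 T-zone lymphomas and 7 B-cell lymphomas (6 diffuse large B cell and 1 marginal zone, Bitsy), where Maddle, Forrest and all lymphomas came from golden retrievers. The labels name no treatment and no engineered allele. The hemangiosarcoma and hematoma cultures were of early passage and had been grown under conditions that favor endothelial cells. Levels are on the log2 scale and came from RMA, which removes background, makes the arrays alike in distribution and reduces the probes of a set to 1 value. The medians of the arrays lay between 5.57 and 5.77, and a level at or below the array's median is called near background. Arrays of 1 group are separate dogs, and their number limits the precision.

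Chemokines are small secreted proteins that draw cells toward their source through receptors on the cell surface. CXCL12 is made by stromal and vascular cells of bone marrow and lymphoid tissue and retains blood-forming and lymphoid cells there, while ACKR3 binds it without the usual G protein signal and removes it. In a lymph node, CCR7 guides T cells and dendritic cells into the T-cell zone, toward CCL19 and CCL21, and CXCR5 guides B cells and follicular helper T cells into follicles, toward CXCL13. CXCR3 marks activated and effector T cells and binds interferon-induced ligands such as CXCL10, and CCR4 marks type 2 helper, regulatory and skin-homing T cells and binds CCL17.

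The labels were checked against marker genes. B-cell lymphomas had a mean level of 6 B-cell markers between 8.64 and 9.13, T-zone lymphomas between 6.60 and 8.81, with Newman highest, and leukemias between 5.66 and 5.73. The mean of 7 T-cell markers was 11.2 to 11.9 in T-zone lymphomas, 8.86 (Rascal), 10.46 (Maddle) and 11.35 (Forrest) in leukemias, and 8.08 to 9.27 in B-cell lymphomas. Of 7 endothelial markers, 0 to 3 lay above the array's median in hemangiosarcoma lines, and of 4 osteoblast markers 0 to 2 did so in osteosarcoma lines, so that the defining markers of both labels were largely near background, whereas 7 or 8 of 8 fibroblast markers lay above it. Hybridization controls were at 8.95 to 9.54 on hemangiosarcoma arrays, at 9.15 to 9.92 on hematoma arrays, at 9.66 to 10.57 on osteosarcoma arrays and at 9.78 to 11.1 on leukemia and lymphoma arrays, so that hemangiosarcoma arrays overlapped with neither osteosarcoma nor primary samples. The 3′ end of an actin control exceeded its 5′ end by 0.52 to 1.20 log2 units in leukemias, by −0.59 to 0.12 in T-zone lymphomas and by −0.35 to 0.55 in B-cell lymphomas. For a second actin control this was 2.61 to 5.35, −1.81 to 2.19 and −0.39 to 2.95 in the same groups. The part of these differences in the results was not tested.

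In all, 6 comparisons were made with limma, a linear model fitted to each probe set, and p-values were adjusted by Benjamini-Hochberg over every probe set tested. To be tested, a probe set had to exceed the array median on a number of arrays no smaller than the smaller of the groups compared. A gene near background throughout 1 group passed only through the other group, which largely set the direction of its difference. Of the 7 genes this held for CXCL12, ACKR3 and CXCL13 in leukemias and for ACKR3 in hemangiosarcoma against osteosarcoma lines. Further cases are named below. A share of all probe sets is a share of those tested in that comparison. Differences are in log2 units, the group named first minus the other, with their standard error (SE). Where a group is near background, its level is only an upper bound, the difference from a higher group is a lower bound on its size, and no fold is given. T-zone lymphomas differed from B-cell lymphomas in 19.8% of the probe sets tested at an adjusted p under 0.05 (9.75% higher and 10.1% lower). Of the 7 genes 1 passed, CCR7, which was higher. The median difference of the 7 genes was 1.25 log2 units, the value of CXCL12, against −0.04 over all probe sets tested. The genes went both ways, with CXCL12, CCR7, CCR4 and CXCR3 higher on average and ACKR3, CXCR5 and CXCL13 lower. The median therefore describes no common shift. Leukemias differed from B-cell lymphomas in 17.0% of probe sets (9.40% lower and 7.64% higher), and 5 of 7 genes were lower (CXCL12, ACKR3, CCR7, CXCR5 and CXCL13) and none higher. There the median of the 7 genes was −1.77, against −0.02 over all. Leukemias differed from T-zone lymphomas in 0.549% of probe sets (0.279% lower and 0.270% higher), and CCR7 alone of the 7 genes passed, with a lower level. The median was −2.12, against 0.02 over all.

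Among cultured cells fewer of these genes could be tested. Hemangiosarcoma lines differed from hematoma cultures in 0.266% of probe sets at an adjusted p under 0.1 (0.133% higher and 0.133% lower), and neither of the 2 genes tested, CXCL12 and CXCR3, passed. Hemangiosarcoma lines differed from osteosarcoma lines in 27.8% of probe sets (11.7% lower and 16.1% higher) at an adjusted p under 0.05, and 1 of the 3 genes tested, ACKR3, was lower. Against leukemia and lymphoma, at an adjusted p under 0.001, hemangiosarcoma lines differed in 38.6% of probe sets (20.2% higher and 18.4% lower), with CXCL12 higher and the other 6 genes lower. The median difference of the 7 genes was −1.96 in that comparison, against −0.08 over all probe sets tested. ACKR3, CCR7, CCR4 and CXCL13 lay above the array's median on 0 of 10 hemangiosarcoma arrays, and CXCR5 on 1. Those genes passed the intensity filter through the primary arrays, so their direction and this median were largely fixed by it. Cultured lines were set there against primary cells, so culture and tumor type cannot be told apart, and in bulk RNA fewer cells of a type cannot be told apart from less RNA per cell. The comparisons share groups and are not independent of each other.

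**Figure D1:**
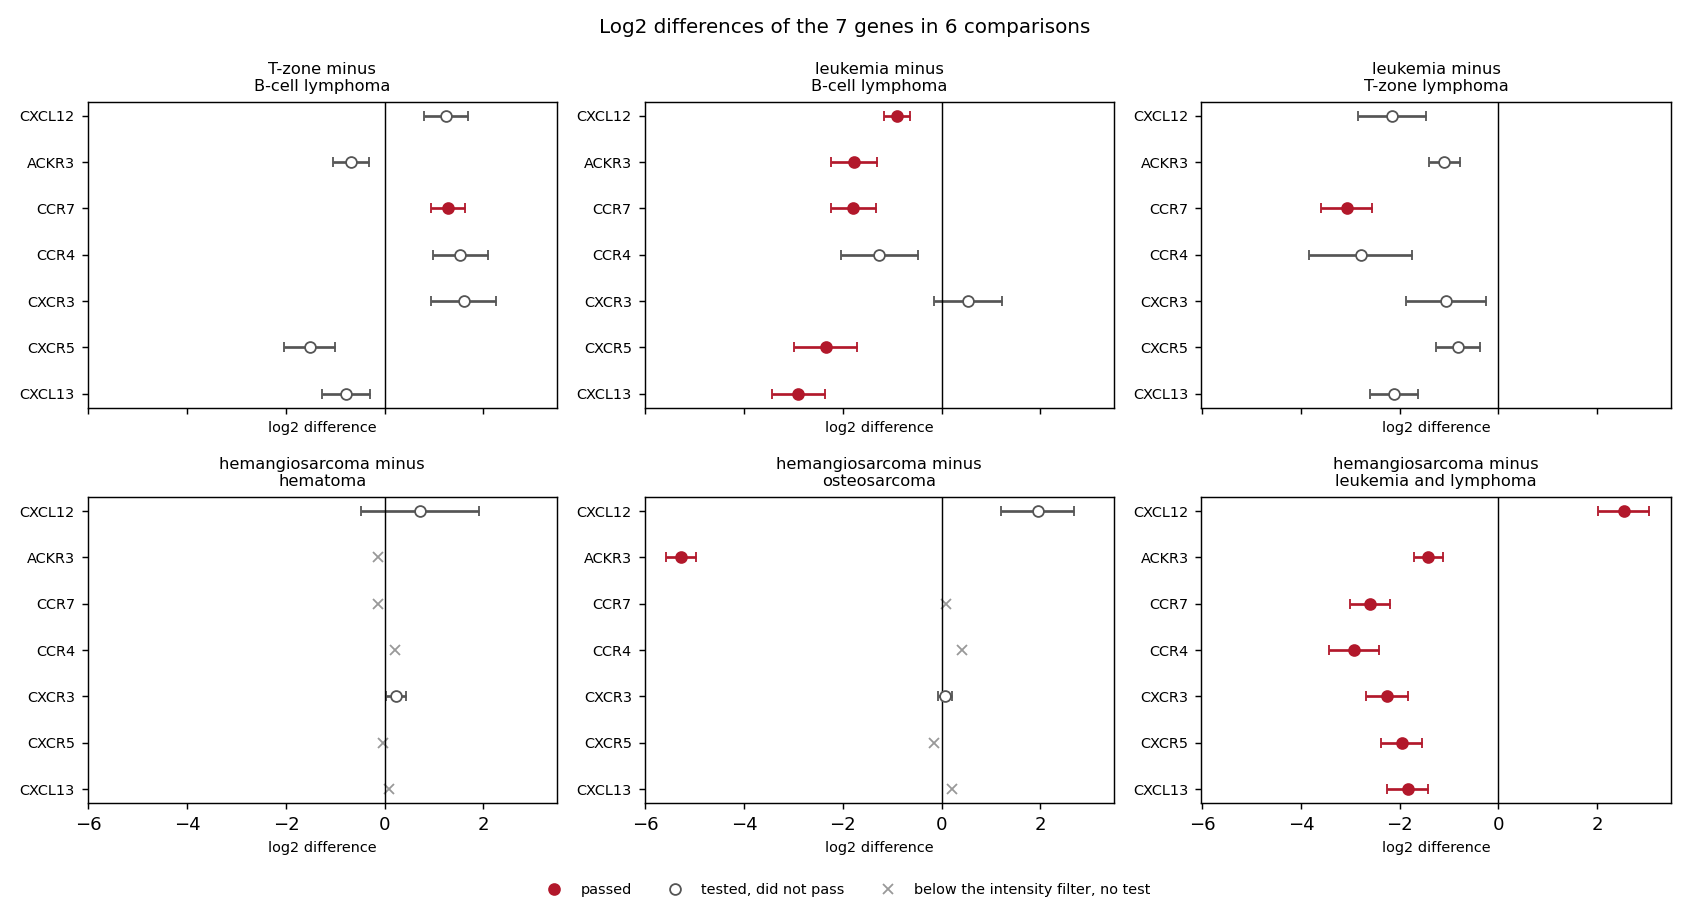
Log2 difference (x axis) of each of the 7 genes (y axis) in 6 comparisons, the group named first minus the group named second, with the standard error as a bar. Filled red points passed the threshold of the comparison, open points were tested and did not pass, and crosses lay below the intensity filter. The lowest filled point is ACKR3 in hemangiosarcoma against osteosarcoma lines, at −5.28, and all 7 genes are filled in hemangiosarcoma against leukemia and lymphoma.

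With its main probe set CXCL12 was at its highest group mean in hemangiosarcoma lines. The levels were 8.91 in ChadG4, 9.09 in ChadG6, 9.01 in ChadG8, 9.17 in Frog, 10.08 in Journey, 10.36 in Tucker, 8.10 in Joey, 9.20 in DD1, 9.73 in ChadP9 and 4.54 in Dal4, a mean of 8.82 ± 1.63 (SD, n = 10). Dal4, the line from the Dalmatian, was near background, while the other 9 lines kept within 8.10 and 10.36. The hematoma cultures spread over almost the whole range of the gene, at 7.96 in Pippin, 4.94 in Baxter and 11.41 in Kylie, the highest value on any array. Osteosarcoma lines had 5.22 (OSCA20), 6.89 (OSCA23), 7.41 (OSCA59), 8.14 (OSCA75) and 6.69 (OSCA71).

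Among primary cells the mean levels of CXCL12 had the order T-zone lymphoma, B-cell lymphoma, leukemia, and that of T-zone lymphomas lay above that of osteosarcoma lines. With the second probe set the mean of osteosarcoma lines, 4.39, lay above that of T-zone lymphomas, 4.12. The levels that follow are of the main probe set. Leukemias had 4.53 (Rascal), 5.09 (Maddle) and 5.62 (Forrest), all near background. T-zone lymphomas had 6.77 (Newman), 7.71 (Niki), 5.23 (Rose), 9.14 (Shilo), 6.82 (Thunder) and 7.70 (Fire). B-cell lymphomas had 5.58 (Benson), 5.9996 (Cooper), 6.05 (Sally), 5.76 (Kaycee), 6.01 (Snuggles), 6.13 (Chieftain) and 6.33 (Bitsy), a narrow range at or just above the array medians. Of the T-zone lymphomas 5 of 6 lay above every B-cell lymphoma, and Rose lay below all of them. In the order of the 6 group means each group overlapped the next in range.

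Hemangiosarcoma lines had more CXCL12 than leukemia and lymphoma, at 8.82 ± 1.63 (SD, n = 10) and 6.28 ± 1.15 (SD, n = 16), a log2 difference of 2.54 (SE 0.52, limma adjusted p = 0.000124). With the second probe set, which lay below the intensity filter, the difference was 1.41 and was not tested. Of the 10 lines 5 lay above all 16 primary samples, and Dal4 alone lay within the range of the leukemias. Against osteosarcoma lines, at 6.87 ± 1.08 (SD, n = 5), the difference of 1.95 (SE 0.74, limma adjusted p = 0.0614, exact permutation p = 0.0420) did not pass. It passed without Dal4, at 2.42 (adjusted p = 0.00118), among golden retriever lines alone, at 2.57 (adjusted p = 0.00516), and with array weights, at 2.18 (adjusted p = 0.00456). It did not pass in 14 of 15 fits with 1 array left out (limma adjusted p up to 0.150). The same held in 9 of 11 other settings. Against hematoma cultures, at 8.10 ± 3.24 (SD, n = 3), the difference of 0.72 (SE 1.20, limma adjusted p = 0.860) turned to −0.87 without Baxter and was 2.37 without Kylie. The hematomas thus spread more widely than either of these differences.

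CXCL12 in T-zone lymphomas averaged 7.23 ± 1.30 (SD, n = 6), against 5.98 ± 0.25 (SD, n = 7) in B-cell lymphomas, a difference of 1.25 (SE 0.44) that did not pass (limma adjusted p = 0.0612, exact permutation p = 0.0326). Without Rose it passed, at 1.65 (adjusted p = 0.00384), and with array weights, at 1.59 (adjusted p = 0.0145). It did not pass in 12 of 13 fits with 1 array left out (limma adjusted p up to 0.124). The same held in 10 of 11 other settings. In leukemias, at 5.08 ± 0.55 (SD, n = 3), CXCL12 was lower than in B-cell lymphomas, with a difference of −0.90 (SE 0.26, limma adjusted p = 0.0359), with leukemias and most B-cell lymphomas close to the array medians. Against T-zone lymphomas the difference of −2.15 (SE 0.69, limma adjusted p = 0.222) did not pass. The second probe set of CXCL12 followed the first over the 34 arrays (Pearson's r = 0.897) but lay lower, between 3.37 and 8.57, and above the array's median on only 4 arrays. With it the hemangiosarcoma lines averaged 5.39 ± 0.93 (SD, n = 10), against 5.57 ± 2.61 (SD, n = 3) in hematoma cultures, a difference of −0.19, and the T-zone lymphomas 4.12 ± 0.48 (SD, n = 6), against 3.96 ± 0.14 (SD, n = 7) in B-cell lymphomas.

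Stromal markers were read beside CXCL12 because stromal cells are a known source of it. The mean of 8 markers of fibroblasts and reticular cells was 5.34 to 5.45 in leukemias, 5.44 to 6.82 in T-zone lymphomas and 5.42 to 9.08 in B-cell lymphomas. The markers did not move together. THY1 averaged 9.44 in T-zone lymphomas and 8.11 in leukemias, above the 6.91 of hemangiosarcoma lines. LUM and PDPN lay above the array's median on 0 of 6 T-zone arrays. The mean in T-zone lymphomas and leukemias thus rests in part on THY1. Shilo, with the highest CXCL12 among primary samples, had the highest stromal mean of the T-zone lymphomas, 6.82, followed by Fire at 6.73 and Niki at 6.43, and Rose, with the lowest CXCL12 there, had the lowest, 5.44. Snuggles, a B-cell lymphoma, had the highest stromal mean of all primary samples, 9.08, and a CXCL12 level of 6.01, amid the other B-cell lymphomas. Over the 16 primary samples Pearson's r was 0.38 and Spearman's rho 0.66, values that rest on arrays of different tumor types and are given as a description. In cultured cells the stromal mean was 10.51 to 12.8. Dal4, the hemangiosarcoma line with the lowest CXCL12, had the lowest stromal mean of the 18 cultured arrays, 10.51, and Baxter, the hematoma with the lowest CXCL12, had the lowest of the hematomas, 10.65, against 11.92 in Kylie and 12.17 in Pippin. Dal4 and Baxter still had 7 of the 8 markers above the array's median. Other cultured arrays went the other way. OSCA20 had the highest stromal mean of the cultured arrays, 12.79, and the lowest CXCL12 of the osteosarcoma lines, 5.22. ChadP9 had a stromal mean of 10.74, close to that of Dal4, and CXCL12 above the mean of the hemangiosarcoma lines. Pippin, above Kylie in stromal mean, had less CXCL12. The part of these markers in the levels of CXCL12 was not tested.

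**Figure D2:**
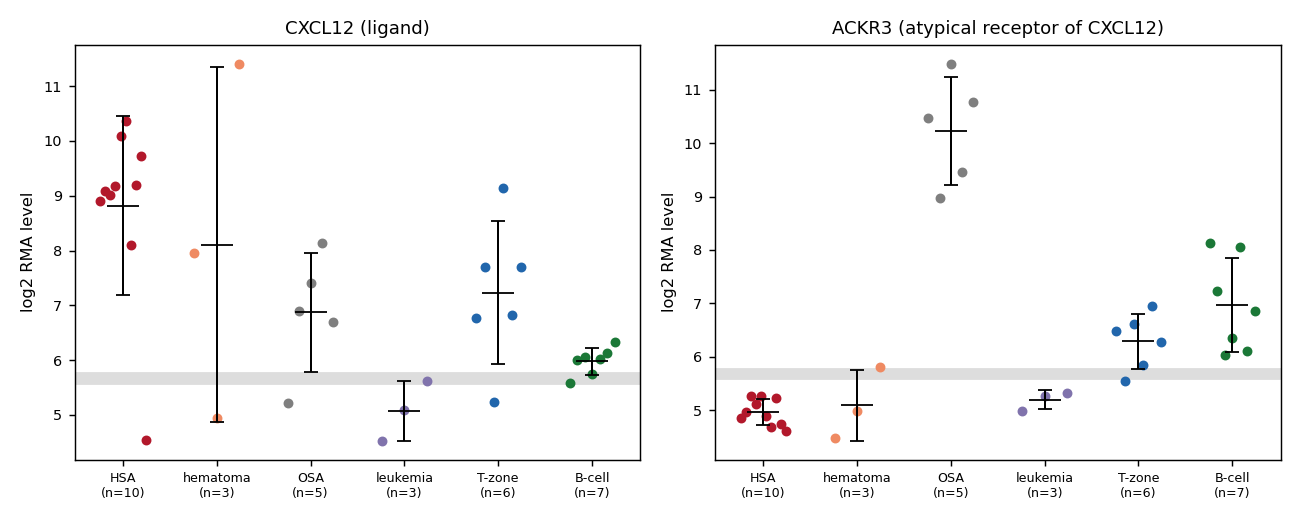
Log2 RMA level (y axis) of CXCL12 and ACKR3 on each of 34 arrays by group (x axis; HSA, hemangiosarcoma lines; OSA, osteosarcoma lines). Points are arrays, the black bars are mean and SD, and the gray band spans the medians of the arrays. CXCL12 is at 8.10 or above in 9 of 10 hemangiosarcoma lines, and ACKR3 is at 8.97 or above only in the 5 osteosarcoma lines.

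ACKR3, the receptor that removes CXCL12, had its highest levels in osteosarcoma lines. Hemangiosarcoma lines ranged from 4.60 to 5.26 with a median of 4.93, and all 10 were near background. Osteosarcoma lines had 10.47 (OSCA20), 8.97 (OSCA23), 11.49 (OSCA59), 9.47 (OSCA75) and 10.77 (OSCA71), with no overlap with any other group. The hematoma cultures had 4.48 (Pippin), 4.98 (Baxter) and 5.80 (Kylie). The difference between hemangiosarcoma lines, at 4.96 ± 0.24 (SD, n = 10), and osteosarcoma lines, at 10.23 ± 1.01 (SD, n = 5), was −5.28 (SE 0.31, limma adjusted p = 5.86e-08). ACKR3 has a single probe set, and like that of CCR4 and the main probe set of CXCL13 its identifier marks it as able to match several transcripts.

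Among primary samples ACKR3 lay between these extremes. Leukemias had 4.99 (Rascal), 5.27 (Maddle) and 5.32 (Forrest), T-zone lymphomas 5.55 (Niki) to 6.95 (Thunder) with a median of 6.37, and B-cell lymphomas 6.03 (Sally) to 8.13 (Benson) with a median of 6.86. Leukemias did not overlap with either kind of lymphoma. They were lower than B-cell lymphomas, at 5.19 ± 0.18 (SD, n = 3) and 6.97 ± 0.88 (SD, n = 7), with a difference of −1.77 (SE 0.47, limma adjusted p = 0.0262). Against T-zone lymphomas, at 6.29 ± 0.51 (SD, n = 6), a difference of −1.09 missed the threshold (SE 0.31, adjusted p = 0.179). Between T-zone and B-cell lymphomas the difference of −0.68 did not pass either (SE 0.37, adjusted p = 0.224). Hemangiosarcoma lines were lower than leukemia and lymphoma, with a difference of −1.42 (SE 0.29, adjusted p = 0.000121), a call lost among golden retriever lines alone, at −1.32 (adjusted p = 0.00427).

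CCR7, the entry receptor to the T-cell zone, was the 1 gene of the 7 that passed between T-zone and B-cell lymphomas. T-zone lymphomas had 8.05 (Newman), 7.50 (Niki), 8.74 (Rose), 9.62 (Shilo), 7.96 (Thunder) and 8.12 (Fire), against 7.09 (Benson), 7.46 (Cooper), 6.28 (Sally), 7.22 (Kaycee), 6.46 (Snuggles), 6.75 (Chieftain) and 8.04 (Bitsy) in B-cell lymphomas. Of the 7 B-cell lymphomas 6 lay below every T-zone lymphoma, and Bitsy, the marginal zone lymphoma, lay among them. The means were 8.33 ± 0.75 (SD, n = 6) in T-zone and 7.04 ± 0.61 (SD, n = 7) in B-cell lymphomas, a difference of 1.29 (SE 0.34, limma adjusted p = 0.0160, exact permutation p = 0.00466) or 2.44-fold. The call was kept when any 1 array was left out. With 19.8% of the probe sets tested passing in this comparison, 1 gene of 7 is no more than that share.

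Leukemias had less CCR7 than both kinds of lymphoma. The levels were 4.63 in Rascal and 4.68 in Maddle, near background and within the range of the cultured cells (4.29 to 4.95 on 18 arrays), and 6.46 in Forrest. Against T-zone lymphomas leukemias were lower, with a difference of −3.07 (SE 0.52, limma adjusted p = 0.0351), without overlap. The call was lost without Rascal (−2.76, adjusted p = 0.0847), Maddle (−2.78, 0.122), Newman (−3.13, 0.0741), Niki (−3.24, 0.0635), Rose (−2.99, 0.0553) or Shilo (−2.82, 0.0518), and the difference stayed between −2.76 and −3.24. Against B-cell lymphomas they were lower too, with a difference of −1.79 (SE 0.46, adjusted p = 0.0228), with Forrest inside their range. Hemangiosarcoma lines, at 4.59 ± 0.18 (SD, n = 10), were lower than leukemia and lymphoma, at 7.19 ± 1.33 (SD, n = 16), with a difference of −2.60 (SE 0.40, adjusted p = 3.33e-06).

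Both ligands of CCR7 were higher in T-zone lymphomas as well. CCL19 had 8.81 (Newman), 11.99 (Niki), 8.33 (Rose), 12.38 (Shilo), 10.10 (Thunder) and 10.06 (Fire) in T-zone lymphomas, against 5.96 to 6.62 in B-cell lymphomas, without overlap. CCL21 had 8.32, 11.68, 6.11, 12.85, 10.71 and 9.41 in the same T-zone lymphomas, against 5.93 to 7.42 in B-cell lymphomas, and Rose alone lay within the B-cell range. CCL19 was higher in T-zone lymphomas by 3.95 log2 units (SE 0.55, limma adjusted p = 0.000192) and CCL21 by 3.54 (SE 0.81, adjusted p = 0.00679). Shilo and Niki, highest for both ligands, were highest and lowest for CCR7. Leukemias had 5.91 to 6.05 for CCL19 and 5.77 to 6.33 for CCL21, close to the levels in cultured cells (5.47 to 6.14 and 5.44 to 6.40), and neither difference from T-zone lymphomas passed (adjusted p = 0.0609 and 0.226). Stromal markers, which moved with CXCL12 among the T-zone lymphomas, also had their highest mean in Shilo and their lowest in Rose, and their part in these levels was not tested.

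CCR4 had 6.85 (Newman), 9.94 (Niki), 9.19 (Rose), 9.34 (Shilo), 8.21 (Thunder) and 6.19 (Fire) in T-zone lymphomas. In B-cell lymphomas it had 6.51 (Benson), 6.67 (Cooper), 6.43 (Sally), 7.62 (Kaycee), 7.48 (Snuggles), 5.39 (Chieftain) and 7.17 (Bitsy). Of the T-zone lymphomas 4 lay above all B-cell lymphomas, while Newman and Fire lay among them. The difference of 1.53 (SE 0.56) did not pass (limma adjusted p = 0.0683, exact permutation p = 0.0420). It passed without Newman (1.82, adjusted p = 0.0390) or Fire (1.95, adjusted p = 0.0162), and with all 34 arrays in 1 fit (adjusted p = 0.0241). It did not pass in 11 of 13 fits with 1 array left out (limma adjusted p up to 0.156). The same held in 7 of 9 other settings.

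Leukemias were split in CCR4. Forrest had 8.12, amid the T-zone lymphomas, whereas Rascal had 3.95 and Maddle 4.42, near the levels of cultured cells (3.62 to 4.34). Neither the difference from T-zone lymphomas, −2.79 (SE 1.05, limma adjusted p = 0.275), nor that from B-cell lymphomas, −1.26 (SE 0.78, adjusted p = 0.287), passed, but without Forrest the difference from B-cell lymphomas was −2.57 (adjusted p = 0.0158). Forrest was also the leukemia with the most CCR7 and the highest mean of T-cell markers. CCL17, a ligand of CCR4, had 5.38 (Newman), 6.74 (Niki), 9.56 (Rose), 8.75 (Shilo), 7.04 (Thunder) and 5.74 (Fire) in T-zone lymphomas, against 4.68 to 5.82 in B-cell lymphomas, higher in T-zone by 1.93 log2 units (SE 0.56, adjusted p = 0.0242). Newman and Fire, lowest for the receptor, were also lowest for this ligand.

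CXCR3, the receptor of activated T cells, lay above the array's median on all 34 arrays. That alone is no sign of expression, since the T-cell marker CD2 did so on 10 of 10 hemangiosarcoma arrays, at a mean of 6.47. T-zone lymphomas had 11.37 (Newman), 8.35 (Niki), 9.62 (Rose), 7.23 (Shilo), 9.64 (Thunder) and 10.40 (Fire), and B-cell lymphomas 7.25 (Benson), 8.62 (Cooper), 7.47 (Sally), 10.28 (Kaycee), 6.77 (Snuggles), 7.48 (Chieftain) and 7.03 (Bitsy). Both kinds spread widely, with Kaycee above 4 of the T-zone lymphomas and Shilo among the lower B-cell lymphomas. The difference of 1.60 (SE 0.65) did not pass (limma adjusted p = 0.0998, exact permutation p = 0.0618), but passed without Shilo (2.04, adjusted p = 0.0349) or Kaycee (2.001, adjusted p = 0.0257). It did not pass in 11 of 13 fits with 1 array left out (limma adjusted p up to 0.213). The same held in 10 of 11 other settings, among them the second probe set, at 1.23 (limma adjusted p = 0.157). Shilo thus had the lowest CXCR3 of the T-zone lymphomas and the highest CCR7, CCL19, CCL21 and CXCL12.

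Leukemias had 8.44 (Rascal), 9.33 (Maddle) and 7.35 (Forrest) of CXCR3, within the range of the B-cell lymphomas and overlapping that of the T-zone lymphomas. The difference from T-zone lymphomas was −1.06 (SE 0.81, limma adjusted p = 0.569) and that from B-cell lymphomas 0.53 (SE 0.69, adjusted p = 0.631), which turned to −0.14 with the second probe set. Cultured cells had 5.66 to 6.76, and hemangiosarcoma lines, at 6.29 ± 0.27 (SD, n = 10), were lower than leukemia and lymphoma, at 8.54 ± 1.41 (SD, n = 16), with a difference of −2.25 (SE 0.43, adjusted p = 6.28e-05) without overlap. With the second probe set that difference was −1.49 and missed the threshold (adjusted p = 0.00135), as did −2.28 among golden retriever lines alone (adjusted p = 0.00156). CXCL10, its interferon-induced ligand, averaged 8.67 ± 0.88 (SD, n = 6) in T-zone and 7.13 ± 1.97 (SD, n = 7) in B-cell lymphomas and did not pass (adjusted p = 0.176). B-cell lymphomas held both the highest value, 10.76 in Chieftain, and the lowest of any lymphoma, 4.29 in Bitsy.

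**Figure D3:**
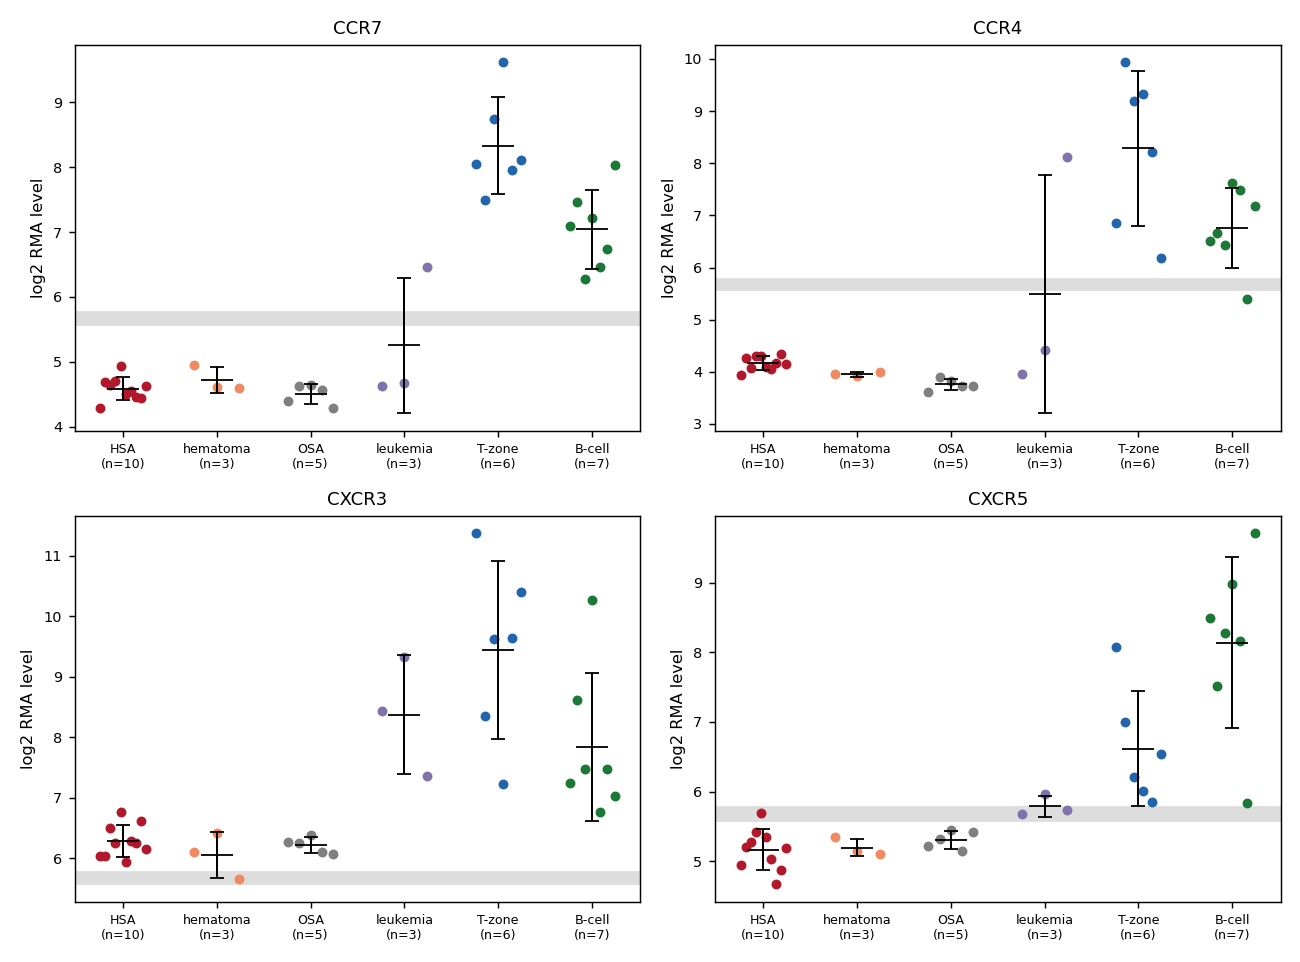
Log2 RMA level (y axis) of CCR7, CCR4, CXCR3 and CXCR5 on each of 34 arrays by group (x axis; HSA, hemangiosarcoma lines; OSA, osteosarcoma lines). Points are arrays, the black bars are mean and SD, and the gray band spans the medians of the arrays. CCR7 is highest in T-zone lymphomas, CXCR5 in B-cell lymphomas, and 1 leukemia stands at 8.12 for CCR4 beside 2 near background.

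CXCR5, the follicle receptor, had the opposite order. T-zone lymphomas had 8.08 (Newman), 7.001 (Niki), 6.21 (Rose), 6.01 (Shilo), 5.85 (Thunder) and 6.55 (Fire). B-cell lymphomas had 8.49 (Benson), 7.51 (Cooper), 8.28 (Sally), 8.98 (Kaycee), 8.16 (Snuggles), 5.84 (Chieftain) and 9.70 (Bitsy). Of the 7 B-cell lymphomas 5 lay above every T-zone lymphoma, and Chieftain, just above its array's median, lay below all of them. The means were 6.62 ± 0.83 (SD, n = 6) in T-zone and 8.14 ± 1.22 (SD, n = 7) in B-cell lymphomas, a difference of −1.52 (SE 0.52) that did not pass (limma adjusted p = 0.0515, exact permutation p = 0.0291). It passed without Newman (−1.81, adjusted p = 0.0250), without Chieftain (−1.90, adjusted p = 0.00430), with all 34 arrays in 1 fit (adjusted p = 0.00260) and with array weights (−1.48, adjusted p = 0.0338). It did not pass in 11 of 13 fits with 1 array left out (limma adjusted p up to 0.110). The same held in 8 of 10 other settings.

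Leukemias had 5.68 (Rascal), 5.97 (Maddle) and 5.74 (Forrest) of CXCR5, at or just above the top of the range of cultured cells (4.67 to 5.70). They were lower than B-cell lymphomas, with a difference of −2.34 (SE 0.63, limma adjusted p = 0.0285), and Chieftain alone overlapped with them. Against T-zone lymphomas the difference of −0.82 did not pass (SE 0.45, adjusted p = 0.420). Newman, the T-zone lymphoma with the most CXCR5, also had the highest mean of the B-cell markers among T-zone lymphomas, 8.81, whereas Chieftain had little CXCR5 and the highest B-cell mean of all, 9.13. Over the 16 primary samples CXCR5 and that mean had a Pearson's r of 0.71 and a Spearman's rho of 0.61, given as a description because the tumor types differ in both. Hemangiosarcoma lines, at 5.17 ± 0.30 (SD, n = 10), were lower than leukemia and lymphoma, at 7.13 ± 1.33 (SD, n = 16), with a difference of −1.96 (SE 0.41, adjusted p = 0.000168), a call lost among golden retriever lines alone, at −1.81 (adjusted p = 0.00586).

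**Figure D4:**
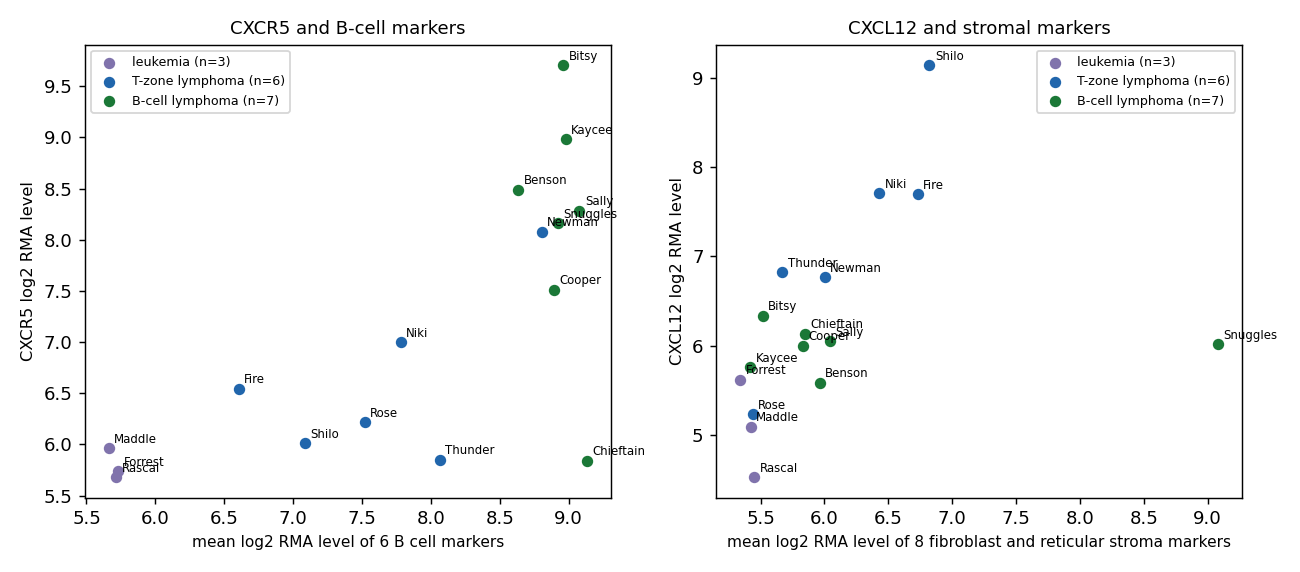
Levels on the 16 leukemia and lymphoma arrays. The left panel sets CXCR5 (y axis, log2 RMA level) against the mean log2 level of 6 B-cell markers (x axis), and the right panel CXCL12 against the mean of 8 fibroblast and reticular stroma markers. Points are arrays named by dog. Chieftain has a B-cell mean of 9.13 with CXCR5 at 5.84, and Snuggles a stromal mean of 9.08 with CXCL12 at 6.01.

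CXCL13, which follicular stroma and follicular helper T cells make, was near background outside the lymphomas. Cultured cells had 4.58 to 5.38 on 18 arrays and leukemias 4.75 (Rascal), 4.83 (Maddle) and 4.73 (Forrest). T-zone lymphomas had 7.16 (Newman), 6.93 (Niki), 5.39 (Rose), 7.22 (Shilo), 8.16 (Thunder) and 6.46 (Fire), and B-cell lymphomas 7.53 (Benson), 9.20 (Cooper), 6.61 (Sally), 6.49 (Kaycee), 7.50 (Snuggles), 7.48 (Chieftain) and 8.87 (Bitsy). The 2 kinds overlapped, with only Cooper and Bitsy above all T-zone lymphomas and Rose and Fire below all B-cell lymphomas. Rose was itself near background, level with the highest cultured cells, a hemangiosarcoma line at 5.38. The difference of −0.78 between T-zone and B-cell lymphomas did not pass (SE 0.48, limma adjusted p = 0.293), nor did that of −1.18 with the second probe set (adjusted p = 0.188).

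Leukemias lay below every lymphoma in CXCL13 with both probe sets. They were lower than B-cell lymphomas, with a difference of −2.90 (SE 0.54, limma adjusted p = 0.00569), and of −5.46 with the second probe set (SE 0.61, adjusted p = 0.000331). From T-zone lymphomas the main probe set differed by −2.12 and did not pass (SE 0.49, adjusted p = 0.106), except without Rose (−2.42, adjusted p = 0.0231), whereas the second differed by −4.28 and passed (SE 0.66, adjusted p = 0.0245). The second probe set read 2.82 to 3.74 in all leukemias and cultured cells and up to 10.30 in Bitsy, a wider scale than that of the main probe set, and over 34 arrays the pair had a Pearson's r of 0.972. Hemangiosarcoma lines, at 4.999 ± 0.21 (SD, n = 10), were lower than leukemia and lymphoma, at 6.83 ± 1.37 (SD, n = 16), with a difference of −1.84 (SE 0.42, adjusted p = 0.000459), and the 3 leukemias lay at the level of the lines. Among golden retriever lines alone that call was lost as well, at −1.80 (adjusted p = 0.00747).

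**Figure D5:**
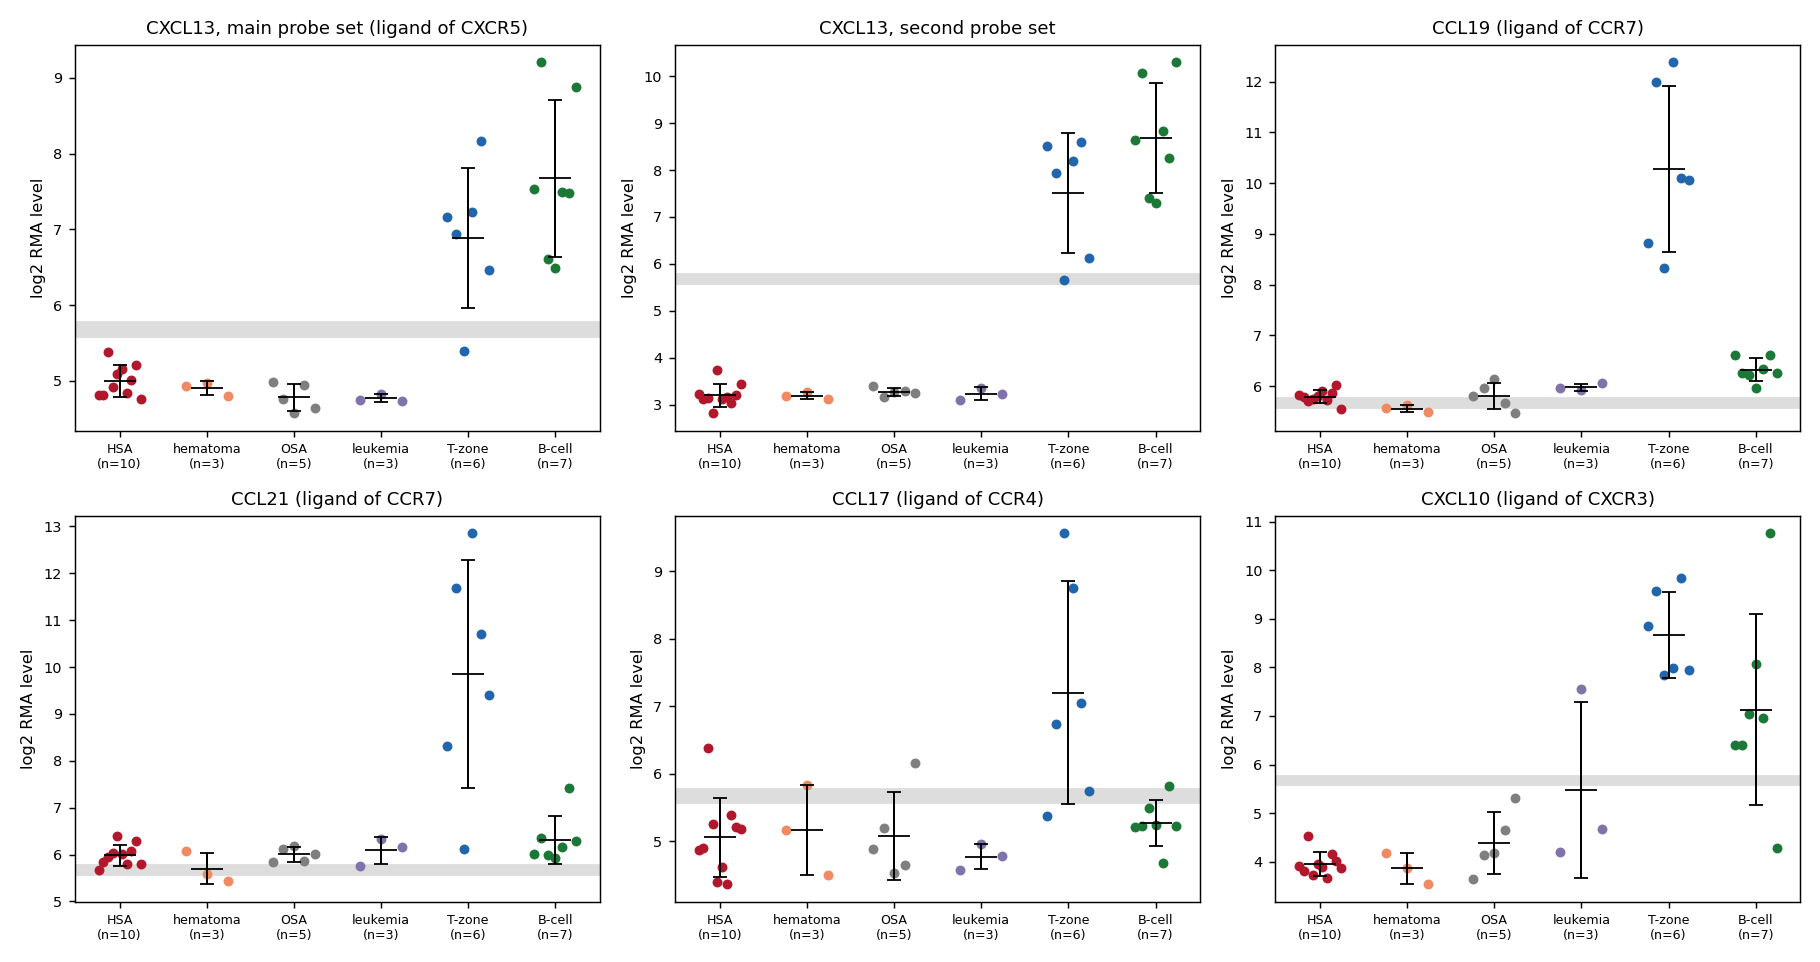
Log2 RMA level (y axis) of CXCL13 with both probe sets and of CCL19, CCL21, CCL17 and CXCL10 on each of 34 arrays by group (x axis; HSA, hemangiosarcoma lines; OSA, osteosarcoma lines). Points are arrays, the black bars are mean and SD, and the gray band spans the medians of the arrays. CCL19 is at 8.33 or above only in the 6 T-zone lymphomas. The second CXCL13 probe set separates all 13 lymphomas from leukemias and cultured cells. With the main one, the T-zone lymphoma Rose, at 5.39, is level with the highest hemangiosarcoma line, at 5.38.

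The calls of leukemia against B-cell lymphoma rested on few arrays. Without Rascal, the acute leukemia, only CXCL13 of the 7 genes passed, and the other 4 genes had adjusted p values of 0.0561 (CXCR5) to 0.119 (CXCL12). Without Maddle CXCL13 alone passed too, with 0.0728 (ACKR3) to 0.101 (CCR7) for the others, and without Forrest ACKR3 (0.0764) and CXCR5 (0.0926) lost their calls. CXCL12 also lost its call without Cooper, Sally, Snuggles or Bitsy (0.0583 to 0.0624) and with all 34 arrays in 1 fit (0.50006). The differences of the 4 genes without Rascal or Maddle lay between −0.63 and −2.43.

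Other chemokine receptors were counted from a list. Of 10 matched receptors 6 could be tested in T-zone against B-cell lymphoma, where 1 was higher and 3 were lower, beside 19.8% of all probe sets passing in either direction, with a median difference of −0.75 against −0.04 over all. CCR8, a receptor of type 2 helper and regulatory T cells, had 8.99 ± 2.44 (SD, n = 6) in T-zone and 4.92 ± 0.58 (SD, n = 7) in B-cell lymphomas, higher by 4.07 log2 units (limma adjusted p = 0.00296). Its B-cell mean lay below the array medians, so the T-zone arrays largely carried it through the intensity filter. CCR6, which B cells and type 17 helper T cells carry, was lower, with a difference of −2.27 (adjusted p = 0.00630), and CCR1, a receptor of myeloid cells, was lower too, with −1.47 (adjusted p = 0.0351). Leukemias too were lower than B-cell lymphomas in CCR6, with a difference of −3.04 (adjusted p = 0.00815), and in CCR2, the monocyte receptor, with −1.88 (adjusted p = 0.0419), as 2 of the 6 receptors tested, beside 9.40% of all probe sets lower.

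Genes of chemokine receptor signaling and its control were counted likewise. Of 33 tested in T-zone against B-cell lymphoma, 11 were higher, 1 was lower and 21 did not pass, beside 9.75% higher and 10.1% lower over all probe sets, with a median difference of 0.43 against −0.04 over all probe sets. GNAI1, an inhibitory G protein subunit, was higher by 3.16 log2 units (limma adjusted p = 0.000764), GNG2, a G protein gamma subunit, by 2.45 (adjusted p = 0.000953), and DPP4, a cell-surface peptidase that trims CXCL12 and other chemokines, by 1.90 (adjusted p = 0.0172). Leukemias were lower than T-zone lymphomas in 2 of 34, beside 0.279% of all probe sets, namely RGS1, which ends G protein signals, with a difference of −3.53 (adjusted p = 0.0339), and GRK3, a receptor kinase, with −1.54 (adjusted p = 0.0345). Against B-cell lymphomas 5 of 31 were higher in leukemias and 6 lower, beside 7.64% and 9.40% of all probe sets, among them GNG2, higher by 2.95 (adjusted p = 0.00901), ARRB2, a beta-arrestin, higher by 2.48 (adjusted p = 0.00438), and GRK3, lower with a difference of −2.69 (adjusted p = 0.00613).

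Adhesion and egress genes were counted beside the receptors. Of 13 tested, 4 were higher and none lower in T-zone than in B-cell lymphomas, beside 9.75% higher and 10.1% lower over all probe sets. The median difference was 0.60, against −0.04 over all. Among the 4 were ITGB7, a gut-homing integrin chain, by 3.09 log2 units (limma adjusted p = 4.87e-06), and CD44, the hyaluronan receptor, by 2.40 (adjusted p = 0.00534). FOXO1, a transcription factor that in mice maintains CCR7 and other homing genes in T cells, was higher by 0.93 (adjusted p = 0.0246). Leukemias were higher than B-cell lymphomas in 2 of 13, beside 7.64% of all probe sets, namely CD44 by 3.56 (adjusted p = 0.00563) and ITGB7 by 2.63 (adjusted p = 0.0220). VCAM1, an adhesion molecule of stroma and vessels, was at 3.30 ± 0.07 (SD, n = 3) in leukemias and at 10.10 ± 1.25 (SD, n = 6) in T-zone lymphomas, a difference of −6.80 (adjusted p = 0.00227), and at 7.999 ± 1.21 (SD, n = 7) in B-cell lymphomas, a difference of −4.70 between leukemias and these (adjusted p = 0.000962). VCAM1 was near background in leukemias and passed the intensity filter through the lymphomas, which largely set its direction. Of the stromal and organizing genes, 1 of 10 was lower and 0 were higher in leukemias than in T-zone lymphomas. Against B-cell lymphomas 1 of 8 was lower and 1 higher, beside 9.40% and 7.64% of all probe sets. VCAM1 was also higher in T-zone than in B-cell lymphomas, by 2.10 (adjusted p = 0.0224), as 1 of 2 genes that passed among 7 stromal and organizing genes tested there.

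Hemangiosarcoma lines were lower than primary cells in most of the signaling genes tested. Against leukemia and lymphoma 22 of 34 signaling genes were lower and 2 higher, beside 18.4% lower and 20.2% higher over all probe sets, with a median difference of −1.64 against −0.08 over all probe sets. Among them were RAC2, a GTPase of blood cells, with a difference of −8.33 (limma adjusted p = 3.67e-27), and CORO1A, an actin regulator of leukocytes, with −7.58 (adjusted p = 1.83e-21), while DOCK8, an exchange factor of migrating leukocytes, was higher by 6.78 (adjusted p = 1.85e-17). Of 13 adhesion and egress genes 9 were lower and 1 higher, against the same shares, among them ITGB2, a leukocyte integrin chain, with −5.42 (adjusted p = 1.45e-16), and ITGA4, the chain that pairs in the receptor of VCAM1, with −4.28 (adjusted p = 3.67e-10). Genes induced by low oxygen were higher in 8 of 13 and lower in none, again beside 20.2% and 18.4%, with ADM, a vasodilator peptide, higher by 7.31 (adjusted p = 2.24e-21) and VEGFA, a vessel growth factor, by 4.76 (adjusted p = 3.26e-11). Only 24 signaling and 8 adhesion and egress genes could be tested between hemangiosarcoma and hematoma. Those tested only here passed the intensity filter through the primary arrays, which largely set their direction. Among low oxygen genes 9 could be tested between T-zone and B-cell lymphomas. The counts against leukemia and lymphoma are therefore a description. Against osteosarcoma lines 0 of 13 low oxygen genes passed, beside 27.8% of all probe sets. S1PR1, the egress receptor of lymphocytes that also acts in endothelium, was higher in hemangiosarcoma than in osteosarcoma lines by 2.22 (adjusted p = 0.000130), and RGS1 by 4.16 (adjusted p = 0.00453). In that comparison 2 of 8 adhesion and egress genes were higher and 1 lower. Of 24 signaling genes 6 were higher and 1 lower, beside 16.1% higher and 11.7% lower over all probe sets. CD44 was higher in hemangiosarcoma than in hematoma by 1.19 (adjusted p = 0.0497), the only 1 of 8 adhesion and egress genes to pass there, beside 0.133% of all probe sets higher.

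For each gene the 3 genes with the most similar levels over the 34 arrays were listed among 11279 genes, as a description, since arrays of 1 tumor type share their differences from the rest. CXCL12 was most like ASIC2, an acid-sensing ion channel (Pearson's r = 0.755), TNFSF15, a cytokine of the TNF family (0.747), and SLC2A1, the glucose transporter induced by low oxygen (0.747). ACKR3 was most like LRIG3 (0.867), a membrane protein, SFRP4 (0.859), a secreted Wnt inhibitor, and CCBE1 (0.857), a secreted protein of lymphatic development. CCR7 was most like ARHGAP25 (0.919), DNASE1L3 (0.913) and ST6GAL1 (0.911), and CCR4 like JAML (0.915), CCR7 itself (0.909) and LOC488248 (0.908). CXCR5 was most like ICOSLG (0.980), the ligand of a T-cell costimulator, GH1 (0.937), growth hormone, and LOC484343 (0.936). CXCR3 was most like LCP2 (0.844), an adaptor of the T-cell receptor, RELT (0.840) and SASH3 (0.840), and CXCL13 like TNFRSF13B (0.949), CD72 (0.915) and TIMD4 (0.914), of which the first and second are receptors of B cells.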

How the data were processed

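Probe set values were deposited on the log2 scale. Per the labels, the authors obtained them by RMA in the affy package, with versions not given in the sources used here. They span 2.03 to 14.98, and whether all 34 arrays went through 1 run is not stated. No further normalization was applied. The labels give the groups and 1 array per line, culture or patient; the sample that was run on 2 chips could not be told from the labels. The highest correlation of any 2 arrays was 0.985.

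Of the probe sets, 175 controls were left out and 42860 were kept, of which 29254 carry 1 gene symbol in the platform annotation, 439 several and 13167 none. Of the 8 listed genes 1 matched no probe set of its own and is not analysed here. Members and lists were chosen with earlier results of these data known. Of 167 other listed genes 141 were matched. The genes named are the members, the 3 most like each of them, the matched ligands, and up to 3 genes per list and comparison with the largest difference among those that passed. HMGB1, 1 of the 5 matched ligands, differed little, with means of 11.89 in T-zone and 12.02 in B-cell lymphomas.

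The linear models ran in limma 3.58.1 under R 4.3.3 and were checked on simulated data. The exact permutation tests over arrays are two-sided and not adjusted. Thresholds on adjusted p were 0.1 for hemangiosarcoma against hematoma, 0.001 against leukemia and lymphoma, and 0.05 otherwise. Alternatives were no filter, a trend with a robust prior, centering, quantile normalization, 1 fit of all arrays, array weights, the second probe set, omission of probe sets that can match several transcripts, Student's t-test, other thresholds, golden retriever lines only, omission of the marginal zone lymphoma or the acute leukemia, and leaving out each array. Descriptive values and figures used Python 3.11.15, pandas 2.3.3, scipy 1.17.1 and matplotlib 3.10.9.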

Additional observations from a re-analysis of the deposited data

Results flagged for a closer look

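Of 40 groups of 4 to 10 arrays looked at for a sample far from the rest, 2 held such a sample, and chance gives about 1 in 20. With the main probe set of CXCL12, Dal4 was lowest of the 10 hemangiosarcoma lines at 4.54, and the nearest line, Joey, was at 8.10. With its second probe set, Chieftain was highest of the 7 B-cell lymphomas at 4.25, and the nearest was at 3.99, both below the array medians.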

How the results depend on the processing

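Of the values recomputed, 571 with 1 array left out and 383 under the other alternatives kept their direction and side of the threshold or, where not tested, moved by less than the spread between arrays. Among tested differences, direction turned for CXCR3 in leukemia against B-cell lymphoma with the second probe set (−0.137) and for CXCL12 in hemangiosarcoma against hematoma with the second probe set (−0.186) and among the values with 1 array left out (−0.865 to 2.37). None of these differences passed. Differences below the intensity filter, which were not tested, also changed sign: with 1 array left out, ACKR3 (−0.430 to 0.229) and CXCR5 (−0.089 to 0.044) in hemangiosarcoma against hematoma, and in hemangiosarcoma against osteosarcoma CXCL13 with the second probe set (−0.073, against 0.216) and CXCR5 among golden retriever lines (0.0066, against −0.143).

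In T-zone against B-cell lymphoma, with 4367 probe sets and 1 of the 7 genes passing, 4 genes passed with all 34 arrays in 1 fit and 4 with array weights. There 2544 probe sets passed without those that can match several transcripts, and 2126 and 0 genes at an adjusted p of 0.01. In leukemia against B-cell lymphoma, with 4050 probe sets and 5 genes, 6996 probe sets passed with all arrays in 1 fit, 7484 with array weights, 2303 without probe sets that can match several transcripts, 2558 and 2 genes with Student's t, 1344 and 1 gene at 0.01, and 1 gene without the acute leukemia. In leukemia against T-zone lymphoma, with 128 probe sets and 1 gene, 0 genes passed without the filter, 1312 probe sets and 3 genes with all arrays in 1 fit, 1438 and 2 with array weights, 2 genes with the second probe set, 81 and 2 without probe sets that can match several transcripts, 22 and 0 with Student's t, 25 and 0 at 0.01, and 204 and 0 without the acute leukemia. In hemangiosarcoma against hematoma, with 62 probe sets, 169 passed with all arrays in 1 fit, 33 with array weights, 39 without probe sets that can match several transcripts, 18 with Student's t and 9 at 0.01. In hemangiosarcoma against osteosarcoma, with 6365 probe sets and 1 gene, 2 genes passed without the filter and 2 with array weights, 3511 probe sets and 0 genes without probe sets that can match several transcripts, 3143 probe sets at 0.01, and 3619 and 2 genes among golden retriever lines. Against leukemia and lymphoma, with 8959 probe sets and 7 genes, 5366 passed without probe sets that can match several transcripts, 14702 at 0.05, and 3 genes among golden retriever lines.

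With 1 array left out, 1 to 3 genes passed in T-zone against B-cell lymphoma, 1884 to 5053 probe sets and 1 to 5 genes in leukemia against B-cell lymphoma, 42 to 248 and 0 to 1 in leukemia against T-zone lymphoma, 7 to 200 probe sets in hemangiosarcoma against hematoma, and 1 to 2 genes in hemangiosarcoma against osteosarcoma. The omission of probe sets that can match several transcripts removes the only ones of ACKR3 and CCR4, and a stricter threshold lowers counts by construction. The cause of the other changes was not tested. No paired analysis was possible because the labels name no dog in more than 1 group. Signals near the array medians bound what can be seen of CXCL12, ACKR3, CXCR5 and CXCL13 in leukemias, and of CCR7 and CCR4 in Rascal and Maddle. They do so too for ACKR3, CCR7, CCR4, CXCR5 and CXCL13 in cultured cells, other than ACKR3 in osteosarcoma. CXCR3 in cultured cells, at 5.66 to 6.76, may be bounded likewise. With 3 leukemias and 3 hematomas there is little precision.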
